A study of Mus musculus with 4 samples.

Results

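Aquaporins are channel proteins that let water cross cell membranes along osmotic gradients. The family members described here are the 9 genes Aqp1, Aqp2, Aqp3, Aqp4, Aqp5, Aqp7, Aqp8, Aqp9 and Aqp11, chosen by gene symbol out of 57186 genes counted in mouse uterus. Of the 9, 6 are held by the authors' deposited TPM table (transcript abundance corrected for gene length). The other 3, Aqp2, Aqp3 and Aqp4, had total counts below the cut of that table, which starts at 51 counts over the 4 libraries, and their counts come from the raw count table. RNA of whole uterus on gestational day 4 was sequenced in 2 knockout and 2 control libraries. Knockout mice had the genotype Prss29Cre/Cre;Pgrf/f (Pgr gecKO), in which both copies of Prss29 carry Cre recombinase and both copies of the progesterone receptor gene Pgr are floxed. Prss29 is transcribed in uterine glands, so the deletion is directed to the gland epithelium. Control mice were wild type, with neither Cre nor floxed Pgr. Effects of Cre, of the changed Prss29 locus and of Pgr loss cannot be told apart in this design. The sources used here name neither strain nor age in weeks.

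Water-selective aquaporins such as Aqp1, Aqp2, Aqp4, Aqp5 and Aqp8 differ from aquaglyceroporins such as Aqp3, Aqp7 and Aqp9, which also carry glycerol, and from Aqp11, a distant member found inside cells in the endoplasmic reticulum. Around implantation the rodent uterus takes up fluid from its lumen, and the luminal walls close around the blastocyst. Water moves in that process through epithelial channels and alongside ions pumped by the epithelium, under the control of oestrogen and progesterone.

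The libraries held 31901278 and 29932153 counts for knockouts 1 and 2, and 35149834 and 33843256 counts for controls 1 and 2. Prss29 had 0 and 0 counts in the knockouts, against 1524 and 190 counts in the controls. With each knockout set to a floor of 3 counts, the knockout level was at least 249.4-fold lower, or 54.8-fold without control 1. Pgr stood at 50.3 and 49.0 TPM in the knockouts, against 52.6 and 52.0 TPM in the controls. Muscle and stroma also transcribe Pgr, so this does not check the deletion in glands. The makeup of the tissue differed within each group. Summed TPM of 7 smooth muscle markers was 6598 and 9910 in knockouts 1 and 2, against 8030 and 2528 in controls 1 and 2. Summed TPM of 8 adipocyte markers, led by Cfd and Adipoq and with Lep and Ucp1 under 15 counts in all, was 0.494 and 83.9 in the knockouts, against 1.57 and 14.1 in the controls. Since tissue was measured in bulk, fewer cells of a type and less RNA per cell cannot be told apart.

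Aqp1 was the most abundant aquaporin transcript in each of the 4 libraries and made up most of the summed aquaporin level. Its level was 221.6 and 439.9 TPM in knockouts 1 and 2, against 240.1 and 103.4 TPM in controls 1 and 2. Aqp5 came next in each library, with 55.9 and 28.9 TPM in the knockouts and 12.0 and 33.7 TPM in the controls. Below it, Aqp11 and Aqp8 averaged 11.01 and 8.64 TPM over the 4 libraries, and their order on this scale was not the same in the groups. Aqp8 TPM divided by Aqp11 TPM was 1.11 and 2.37 in the knockouts, against 0.828 and 0.235 in the controls. The ratio was thus above 1 in both knockouts and below 1 in both controls, a pattern noticed after the values were seen. It depends on the correction for length: in CPM, which scales counts to library size only, Aqp11 was above Aqp8 in each library. Aqp9 averaged 0.759 TPM, Aqp3 0.547 TPM and Aqp7 0.463 TPM, and the ranges of these 3 neighbours overlapped over the libraries. Aqp2 and Aqp4 averaged 0.142 and 0.0480 TPM on the same scale, from 8 and 13 counts in all.

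**Figure D1:**
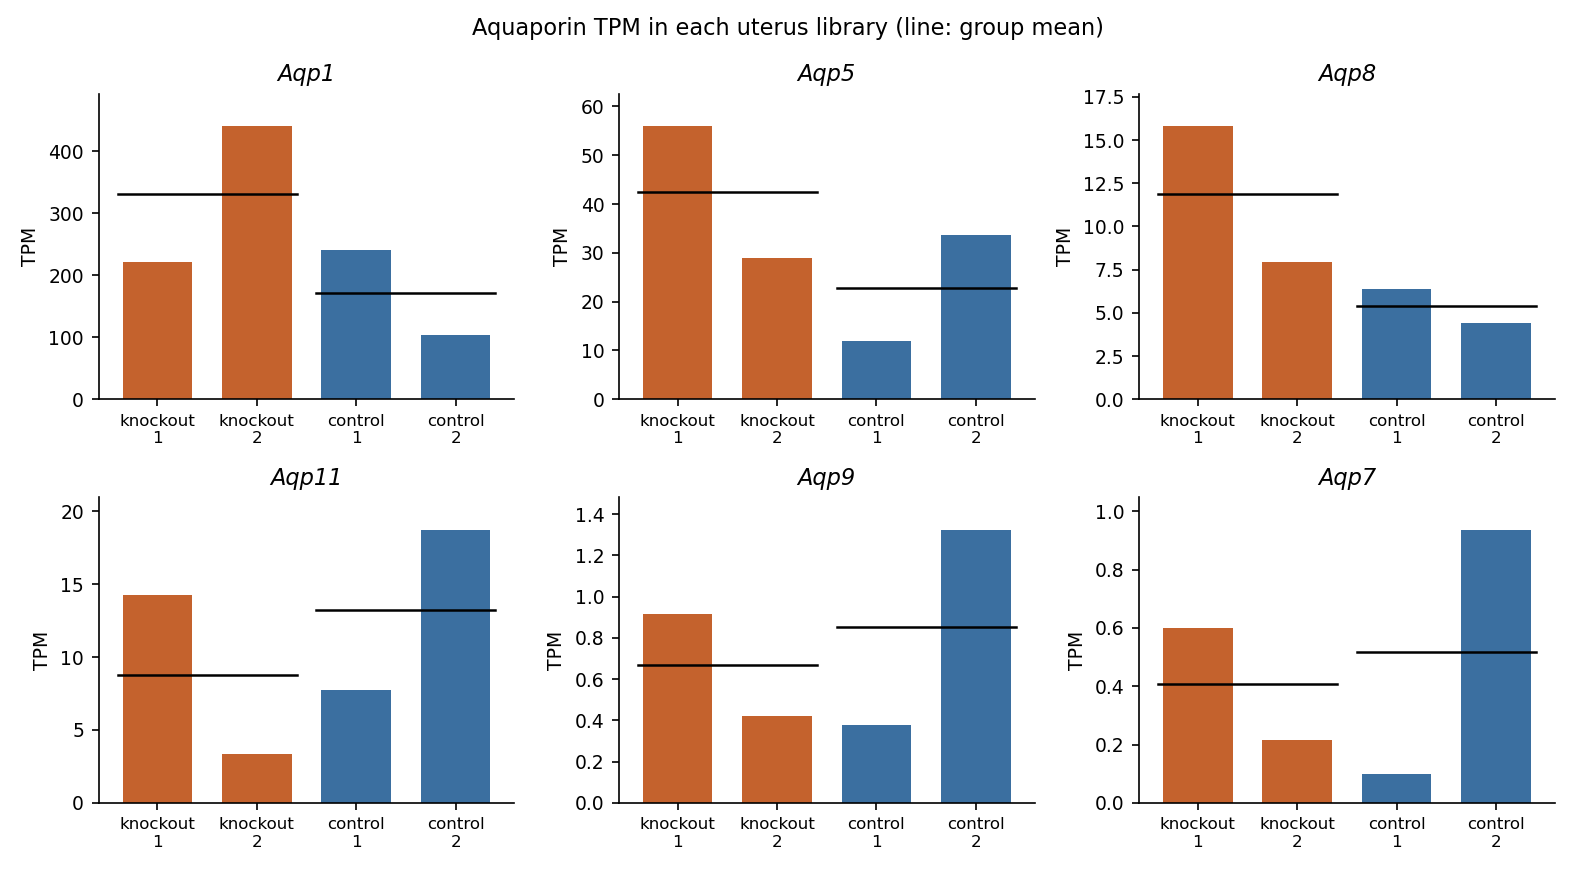
TPM (vertical axes, each from 0 and with its own scale) of the 6 aquaporin genes of the deposited TPM table in knockout libraries 1 and 2 and control libraries 1 and 2 (1 bar per library, black line at the group mean, n = 2). Both knockout bars lie above both control bars for Aqp8, while the groups overlap for Aqp1, Aqp5, Aqp7, Aqp9 and Aqp11.

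Among the 19991 genes of the TPM table, Aqp1 ranked at place 577 and 262 by level in the knockouts and at place 549 and 1495 in the controls. Its share of the summed TPM of the 6 members was 71.7% and 91.5% in knockouts 1 and 2, against 90.0% and 63.6% in controls 1 and 2. The share of Aqp5 was 18.1% and 6.02% in the knockouts, against 4.49% and 20.8% in the controls. For Aqp11 the share was 4.61% and 0.697% in the knockouts and 2.90% and 11.5% in the controls. Aqp8 held 5.11% and 1.65% in the knockouts and 2.40% and 2.70% in the controls. The share of each of the 6 members overlapped between the groups, although the ratio of Aqp8 to Aqp11 given above did not. Knockout 1 and control 2 had the larger Aqp5 and Aqp11 shares, and knockout 2 and control 1 the larger Aqp1 shares. Aqp7 and Aqp9 each held less than 1% in every library.

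**Figure D2:**
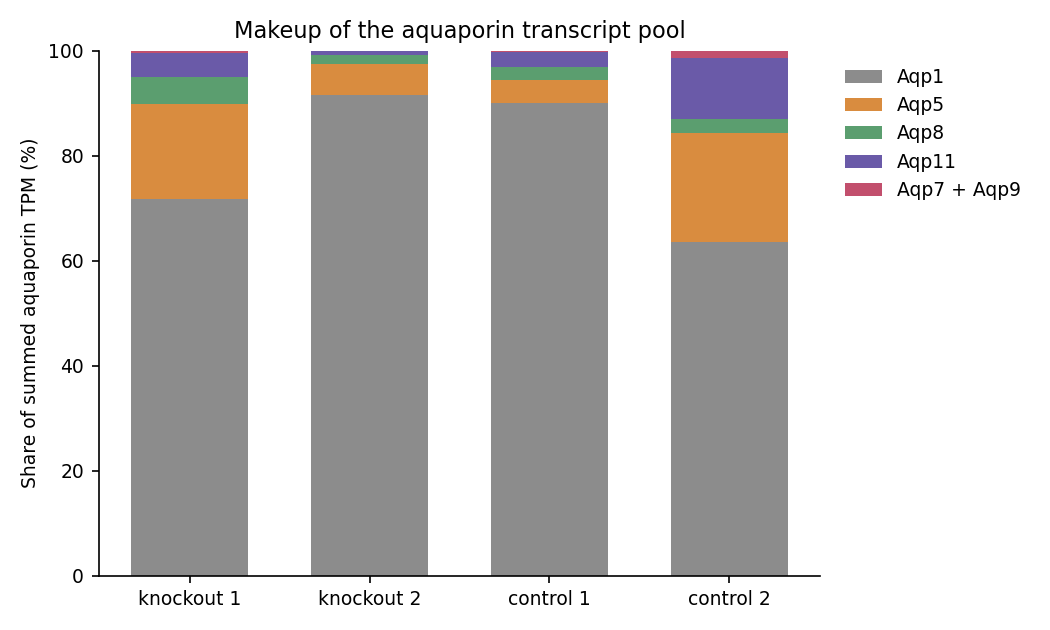
Share of each aquaporin in the summed TPM of the 6 members (vertical axis, percent) in each library, with knockouts to the left of controls and Aqp7 and Aqp9 drawn together. The Aqp1 share is 91.5% in knockout 2 and 90.0% in control 1, and lower, at 71.7% and 63.6%, in knockout 1 and control 2.

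Summed over the 6 members, aquaporin TPM was 309.1 and 480.8 in the knockouts, against 266.7 and 162.5 in the controls. The means were 394.9 ± 121.4 TPM in knockouts and 214.6 ± 73.7 TPM in controls (SD, n = 2 each), a ratio of 1.84. Both knockouts lay above both controls. The exact two-sided permutation test gave p = 0.333, the smallest value that 2 against 2 libraries allow. The difference of 180.3 TPM between the means became 94.5 TPM without knockout 2. Without Aqp1 the sum was 87.5 and 40.9 TPM in the knockouts and 26.6 and 59.1 TPM in the controls, and the groups overlapped. The aquaglyceroporins Aqp3, Aqp7 and Aqp9 together amounted to 1.85 and 1.19 TPM in the knockouts and 0.778 and 3.26 TPM in the controls.

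Of the 9 members, 7 had enough counts to be tested, and 0 passed in either direction after adjustment over all 20950 genes tested (edgeR quasi-likelihood test, Benjamini-Hochberg, threshold 0.05). Over all genes this fit called 1 gene, or 0.00477% of those tested. DESeq2 and limma-voom likewise called 0 members. At an unadjusted p under 0.05 edgeR had 1 member, Aqp8, where over all genes 3.01% had such a p. DESeq2 had 3 of 9 members at that level, Aqp1, Aqp5 and Aqp8, where 2.14% of the 34279 genes with a p did. In limma-voom it was Aqp8 alone, where 2.87% of all genes did. Log2 fold changes, knockout over control, were above 0 for 3 of the 7 members and below 0 for 4, with a median of −0.31, against 0.0063 over all genes tested. Both knockouts lay above both controls for 1 of the 7, Aqp8, where 12.2% of all tested genes did so. Both knockouts lay below both controls for 0 of the 7, where 13.1% of all tested genes did so. Counts of 1 and 0 among 7 genes lie near these shares and are no result about the members.

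**Figure D3:**
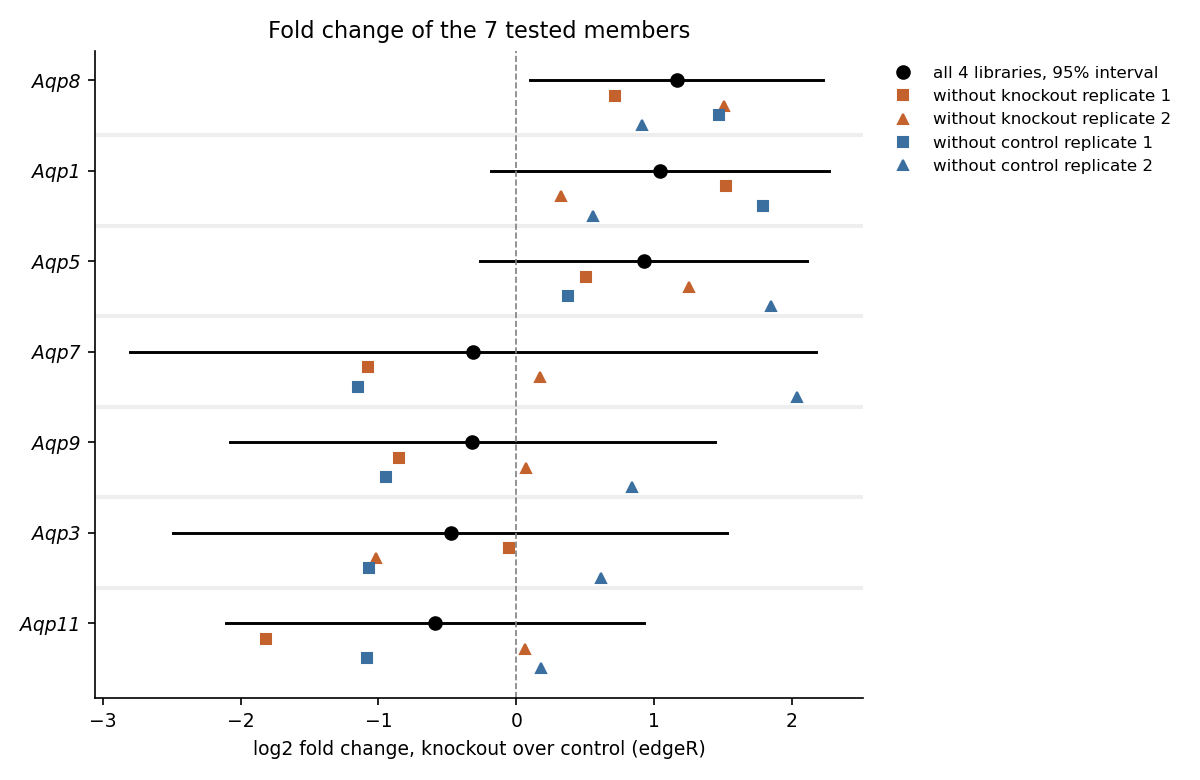
Log2 fold change, knockout over control (horizontal axis, edgeR), of the 7 tested aquaporins, with the 95% interval from all 4 libraries in black and the value with 1 library left out as coloured squares and triangles below it. The values of Aqp8, Aqp1 and Aqp5 stay above 0 whichever library is left out, and those of Aqp7, Aqp9, Aqp3 and Aqp11 fall on both sides of 0.

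Aqp8 (ENSMUSG00000030762), a channel for water and hydrogen peroxide known from gut, pancreas and liver, was the only one of the 7 tested members whose groups did not overlap. It had 250 and 123 counts in the knockouts and 110 and 76 counts in the controls. Per length this was 15.8 and 7.94 TPM in the knockouts, against 6.41 and 4.39 TPM in the controls. The lower knockout was closer to the higher control than to the other knockout. On the log2 scale the knockouts were higher by 1.16 (SE 0.45, 95% interval 0.10 to 2.23), with adjusted p = 0.99998 in edgeR over all genes. Knockout 1 exceeded knockout 2 by a factor of 1.72 with an exact 95% counting interval of 1.38 to 2.16, so the spread between the knockouts was larger than counting error. With 1 library left out, the log2 fold change ran between 0.72 without knockout 1 and 1.51 without knockout 2.

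Aqp5 (ENSMUSG00000044217) is the apical water channel of salivary, lacrimal and sweat glands, and in rodent uterus it has been described in epithelium. Its counts were 1455 and 737 in the knockouts and 338 and 959 in the controls. Knockout 1 was highest, control 1 lowest, and knockout 2 and control 2 lay close together at 28.9 and 33.7 TPM. The means were 42.4 ± 19.1 TPM in knockouts and 22.9 ± 15.4 TPM in controls (SD, n = 2 each). Its log2 fold change of 0.92 (SE 0.50, 95% interval −0.27 to 2.11) did not pass in edgeR, with adjusted p = 0.99998. Markers of gland epithelium had mostly lower values in the knockouts. Of the 10 markers, which include Prss29 itself, 8 had a log2 fold change below 0, the median was −2.03, also with Prss29 at its bound, and their summed TPM was 169.4 and 166.0 in the knockouts, against 465.9 and 427.7 in the controls. Of these 10 genes, listed with earlier results of these data known, 7 had an unadjusted p under 0.05 in edgeR, where 3.01% of all genes tested did. After adjustment over all genes 0 passed. The most abundant were Spink1, a trypsin inhibitor, at 48.8 and 32.8 TPM in the knockouts and 117.8 and 255.7 TPM in the controls, and the chemokine gene Cxcl15, at 55.4 and 97.8 TPM in the knockouts and 44.4 and 58.2 TPM in the controls. Foxa2 and Sox9 of the same list overlapped between the groups. Foxa2 was at 18.8 and 6.63 TPM in the knockouts and 18.3 and 21.25 TPM in the controls. Sox9 was at 26.1 and 6.99 TPM in the knockouts and 10.3 and 27.7 TPM in the controls. The part of gland content in the Aqp5 values was not tested. Without control 1, Aqp5 was at a log2 fold change of 0.37, and without control 2 at 1.85. The 2 controls differed by a factor of 2.81 in Aqp5 (95% counting interval 2.48 to 3.19), and 5.14% of tested genes differed more between them.

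Aqp1 (ENSMUSG00000004655) forms the water pores of red blood cells, of many capillaries and of the kidney proximal tubule. In rodent uterus it has been described in muscle and vessels. The order of its levels was knockout 2, control 1, knockout 1 and control 2, so the groups overlapped. Means were 330.8 ± 154.3 TPM in knockouts and 171.8 ± 96.7 TPM in controls (SD, n = 2 each). In edgeR the log2 fold change came to 1.04 (SE 0.51, 95% interval −0.18 to 2.26), with adjusted p = 0.99998. It was 0.32 without knockout 2 and 0.56 without control 2, against 1.52 without knockout 1 and 1.79 without control 1. Knockout 2 exceeded knockout 1 by a factor of 2.29 (95% counting interval 2.22 to 2.37), and control 1 exceeded control 2 by a factor of 2.33 (2.23 to 2.43). Each of these differences within a group was larger than the ratio of the group means in TPM.

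The marker sums of smooth muscle, red blood cells and lymphatic endothelium were highest in knockout 2 and next in control 1, as Aqp1 was. The sums of skeletal muscle, oviduct epithelium and mesothelium had the same top libraries, at 269.4, 328.6 and 125.9 TPM in knockout 2 and 237.9, 252.9 and 125.0 TPM in control 1. Each of these 3 matches rested on the most abundant marker. Without Tppp3 the oviduct sum was highest in control 2 (46.2 TPM) and lowest in knockout 2 (24.3 TPM). Mesothelium without Wt1 was highest in control 1, at 57.2 TPM against 54.9 TPM in knockout 2. Skeletal muscle without Acta1 was highest in knockout 2 (44.0 TPM) and next in knockout 1 (42.5 TPM, against 39.7 TPM in control 1). Of the 7 smooth muscle markers, 4 had the same order of libraries as Aqp1, and all 7 had a log2 fold change above 0, with 0 past the threshold. Tagln, a contractile-cell actin-binding protein, was at 2231 and 3723 TPM in the knockouts and 2197 and 989.1 TPM in the controls. Acta2, smooth muscle actin, was at 2101 and 3137 TPM in the knockouts and 2902 and 730.8 TPM in the controls. The 8 erythroid markers summed to 172.7 and 504.2 TPM in the knockouts and 464.5 and 138.2 TPM in the controls, with Hbb-bs and Hba-a1 the most abundant and Epb42 at 0 in all libraries. Without Hbb-bs the erythroid sum was highest in control 1, at 235.8 TPM against 233.1 TPM in knockout 2. Smooth muscle without Tagln and lymphatic endothelium without Ccl21a kept knockout 2 highest and control 1 next. Summed TPM of 6 lymphatic markers was 140.5 and 741.7 in the knockouts and 430.3 and 170.7 in the controls, with the chemokine gene Ccl21a and Pdpn the most abundant. The full order of libraries seen for Aqp1 was shared by 3 of the 8 erythroid and 0 of the 6 lymphatic markers. The 8 blood endothelium markers ran otherwise, at 709.8 and 405.2 TPM in the knockouts and 660.1 and 573.7 TPM in the controls, with Cdh5 and Pecam1 the most abundant. Knockout 2, highest in Aqp1, was therefore lowest in blood endothelium. The part of muscle, blood or lymphatic vessels in the Aqp1 values was not tested.

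**Figure D4:**
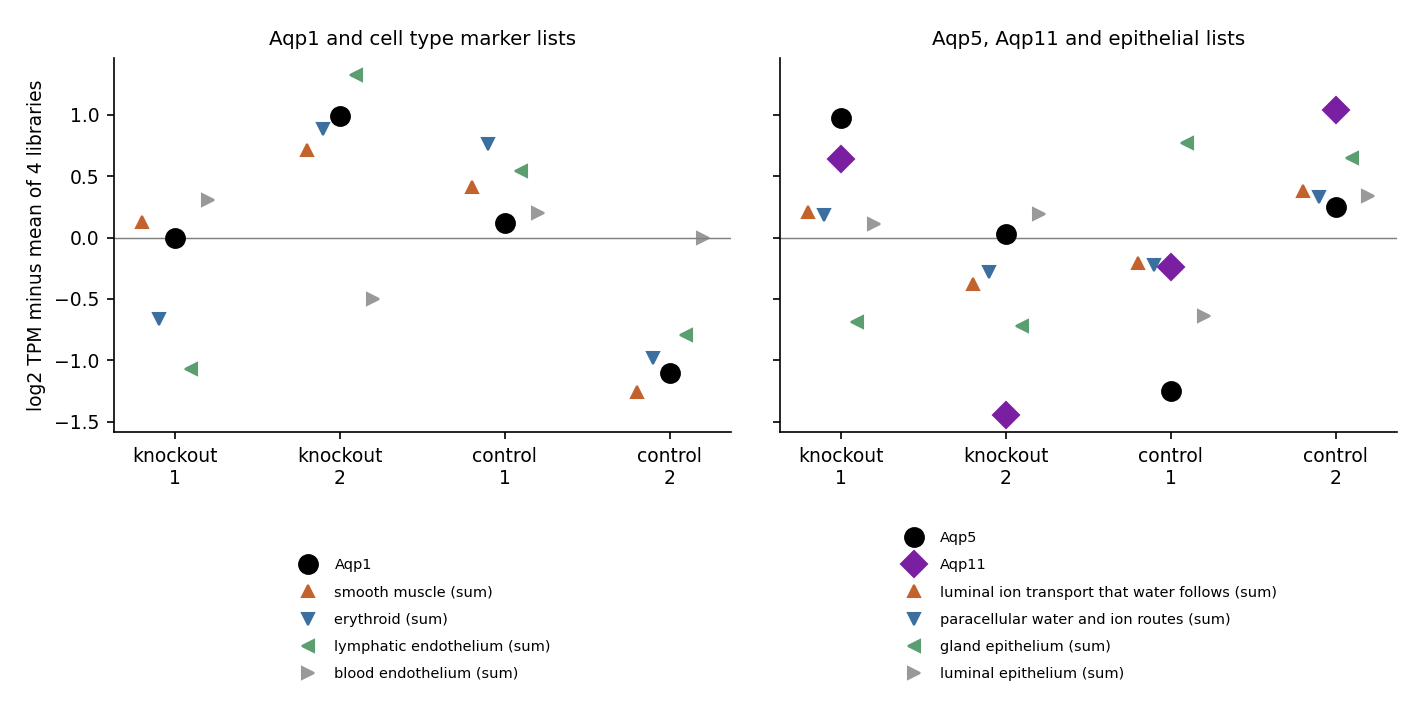
Log2 TPM minus the mean of the 4 libraries (vertical axis) in knockouts 1 and 2 and controls 1 and 2, for Aqp1 beside summed marker lists (left), and for Aqp5 and Aqp11 beside summed epithelial, ion transport and claudin lists (right). Aqp1 and the smooth muscle sum are highest in knockout 2 and lowest in control 2, and Aqp11 is highest in control 2 and lowest in knockout 2.

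Aqp11 (ENSMUSG00000042797) lies in the endoplasmic reticulum, and its loss in mice leads to cystic kidneys. It had 1342 and 309 counts in the knockouts and 791 and 1930 counts in the controls. Per length, knockouts had 14.2 and 3.35 TPM, against 7.74 and 18.7 TPM in controls. Control 2 was highest and knockout 2 lowest, the reverse of the order seen for Aqp1. The log2 fold change, −0.59 (SE 0.64, 95% interval −2.11 to 0.93), had adjusted p = 0.99998 in edgeR, and it turned to 0.066 without knockout 2 and to 0.18 without control 2. Knockout 1 exceeded knockout 2 by a factor of 3.68 (95% counting interval 3.25 to 4.18), and 3.44% of tested genes differed more between the knockouts. The order of Aqp11 was shared by 9.23% of the genes tested, and that of Aqp1 by 8.94%. These were the most frequent and the second most frequent of all orders of the 4 libraries. The 18 genes of luminal ion transport and the 10 of paracellular routes were also highest in control 2 and lowest in knockout 2 as sums. Of single genes, 8 of 18 and 4 of 10 were highest in control 2. Without Cldn3 the paracellular sum was 529.7 and 585.6 TPM in the knockouts and 573.3 and 566.2 TPM in the controls and no longer had this order.

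The genes with profiles nearest to the most abundant members were sought among 13315 genes averaging 5 CPM or more, as a description over 4 libraries. Likeness was measured by the largest of the 4 absolute differences in mean-centred log2 CPM. Nearest to Aqp1 were Gm48159 at 0.12, Gm48529 at 0.13 and Tagln at 0.13 log2 units. Gm48529 had 1335 and 2573 CPM in the knockouts and 1357 and 607.3 CPM in the controls. Tagln had 1340 and 2583 CPM in the knockouts and 1363 and 612.5 CPM in the controls. Both genes may therefore have been credited with the same reads. Nearest to Aqp5 were Trdn at 0.23, Hrk at 0.25 and Bcat1, a branched-chain amino acid transaminase, at 0.27. For Aqp11 they were Tmem158 at 0.094, E230020A03Rik at 0.16 and Ppp4r1l-ps at 0.17.

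The stretches of 250 bases before the transcription start of the 4 well-counted members are shown because the deleted gene encodes a steroid-receptor transcription factor, which binds DNA at palindromic sites made of AGAACA-like repeats. They come from RefSeq on GRCm38.p6, an older build than the GRCm39 that the submitters' processing notes name, and 8 of the 9 members had an entry there. Capitals mark GC boxes. Aqp1 is chr6:55336049-55336298 on the plus strand, Aqp5 chr15:99590778-99591027 plus, Aqp8 chr7:123462044-123462293 plus and Aqp11 chr7:97738248-97738497 minus.
Aqp1: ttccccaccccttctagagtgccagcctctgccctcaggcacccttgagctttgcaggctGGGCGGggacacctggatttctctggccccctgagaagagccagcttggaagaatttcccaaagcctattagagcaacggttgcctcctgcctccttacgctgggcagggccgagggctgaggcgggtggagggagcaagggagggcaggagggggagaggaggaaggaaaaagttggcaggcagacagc
Aqp5: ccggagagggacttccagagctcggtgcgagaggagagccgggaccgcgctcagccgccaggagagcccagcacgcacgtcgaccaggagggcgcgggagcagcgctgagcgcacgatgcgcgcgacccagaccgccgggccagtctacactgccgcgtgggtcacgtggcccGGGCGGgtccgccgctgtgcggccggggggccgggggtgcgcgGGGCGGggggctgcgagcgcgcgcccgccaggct
Aqp8: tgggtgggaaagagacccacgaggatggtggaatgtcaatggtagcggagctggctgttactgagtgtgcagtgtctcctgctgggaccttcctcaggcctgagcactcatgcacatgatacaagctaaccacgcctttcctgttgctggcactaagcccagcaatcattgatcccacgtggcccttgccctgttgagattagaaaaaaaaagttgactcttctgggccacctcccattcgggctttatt
Aqp11: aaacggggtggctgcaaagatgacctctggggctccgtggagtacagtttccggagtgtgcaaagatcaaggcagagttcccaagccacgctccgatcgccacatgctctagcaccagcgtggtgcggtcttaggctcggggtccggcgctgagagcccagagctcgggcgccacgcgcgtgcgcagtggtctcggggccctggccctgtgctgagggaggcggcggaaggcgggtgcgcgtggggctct
Each window was searched on both strands for the TATA box TATAAA, the GC box GGGCGG, the CCAAT box, the steroid receptor palindrome core ACANNNTGT and its repeat unit AGAACA, which can overlap, the forkhead motif TGTTTAC and the oestrogen response element, GGTCA and TGACC set 3 bases apart. The GC box GGGCGG was found at 190 to 185 bases before the start of Aqp1, and at 77 to 72 and 34 to 29 bases before that of Aqp5. No other of these motifs was found in the 4 windows. Among the windows not shown, that of Aqp2 held AGAACA at 179 to 174 bases before its start, and that of Aqp3 held TATAAA at 29 to 24 and GGGCGG at 73 to 68 bases. Motif positions were listed only for the 6 members with a single window. For members with more than a single window they are not reported here. Of 32851 such windows in the table, 32.7% held GGGCGG, 33.8% CCAAT, 12.4% TATAAA, 5.84% ACANNNTGT, 16.1% AGAACA, 3.17% TGTTTAC and 0.0639% the oestrogen response element. The window of Aqp5 held 38 CpG pairs and that of Aqp11 23, while those of Aqp1 and Aqp8 held 5 each, against a median of 6 over all windows. The absence of these letters from a window says nothing about binding elsewhere.

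Among the aquaglyceroporins, Aqp9, a glycerol and urea channel of liver and leukocytes, had 38 and 17 counts in the knockouts and 17 and 60 counts in the controls. Per length this was 0.916 and 0.419 TPM in the knockouts, against 0.378 and 1.32 TPM in the controls. Its log2 fold change was −0.32 with a 95% interval of −2.08 to 1.44, and without control 2 the value was 0.84. The 7 neutrophil markers summed to 8.41 and 9.40 TPM in the knockouts and 7.18 and 18.0 TPM in the controls, with Csf3r and S100a9 the most abundant and Ngp under 15 counts in all. The 7 macrophage markers, led by Lyz2 and C1qa, summed to 609.6 and 638.8 TPM in the knockouts and 838.9 and 1182 TPM in the controls. Both sums were highest in control 2, as Aqp9 was, and so were 5 of the 7 neutrophil and 3 of the 7 macrophage markers. Without Lyz2 the macrophage sum was 227.3 and 189.9 TPM in the knockouts and 350.1 and 309.3 TPM in the controls, highest in control 1. Their part in the Aqp9 values was not tested.

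Aqp7, through which adipocytes release glycerol, had 17 and 6 counts in the knockouts and 3 and 29 counts in the controls. Its log2 fold change was −0.31 with a 95% interval of −2.80 to 2.17, and 2.04 without control 2. Control 2 exceeded control 1 by a factor of 9.57 (95% counting interval 2.97 to 49.1), while the knockouts did not differ beyond counting error (ratio of knockout 1 to knockout 2 of 2.40, interval 0.904 to 7.44). Per length, Aqp7 was at 0.601 and 0.217 TPM in knockouts 1 and 2, against 0.0977 and 0.937 TPM in controls 1 and 2. The adipocyte sum was higher in knockout 2 than in knockout 1, opposite to Aqp7, and higher in control 2 than in control 1, in the same direction as Aqp7. The part of adipocytes in the Aqp7 values was not tested.

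Aqp3, the glycerol channel of skin and other stratified epithelia, had 6 and 10 counts in the knockouts and 6 and 20 counts in the controls. The log2 fold change of −0.47 had a 95% interval of −2.49 to 1.53 and was 0.62 without control 2. The 8 markers of stratified cervical or vaginal epithelium summed to 2.11 and 4.40 TPM in the knockouts and 5.78 and 9.44 TPM in the controls. The sum was highest in control 2, as Aqp3 was, but of the 7 markers above 0 only 3 were highest there. Dsg3, a desmosomal cadherin gene and the most abundant of them, was at 0.458 and 2.15 TPM in the knockouts and 3.85 and 1.68 TPM in the controls. Krt14 was at 0.227 and 0.581 TPM in the knockouts and 0.629 and 5.72 TPM in the controls, Krt5 had under 15 counts in all and Sprr1b was at 0. Their part in the Aqp3 counts was not tested.

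Aqp4, the water channel of astrocyte end-feet and of fast muscle fibres, had 1 and 0 counts in the knockouts and 1 and 11 counts in the controls. Pooled over libraries the ratio of knockout to control was 0.0952 with an exact counting interval of 0.0022 to 0.643, and 11 of the 13 counts came from control 2. Sox10, a glial gene, was also highest there, at 0.262 and 0.234 TPM in the knockouts and 0.121 and 9.41 TPM in the controls. Of the 6 nerve and glia markers 2 were highest in control 2, and the 6 summed to 12.3 and 6.27 TPM in the knockouts and 11.2 and 21.5 TPM in the controls. The 8 skeletal muscle markers went the other way, at 156 and 269.4 TPM in the knockouts and 237.9 and 56.55 TPM in the controls. Of the 6 above 0, 5 were lowest in control 2. The part of either list in the Aqp4 counts was not tested. Aqp2, the vasopressin-regulated channel of the kidney collecting duct, had 4 and 4 counts in the knockouts and 0 and 0 counts in the controls. With each control set to the floor of 3 counts and the knockout counts taken as exact, the ratio of knockout to control was 1.53 for Aqp2. Counting error of the knockouts is not part of this value. Neither gene passed the filter on low counts.

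Aqp2, Aqp5 and Aqp6 lie next to each other on chromosome 15, and Aqp7 and Aqp3 on chromosome 4, by the order of protein-coding genes in RefSeq on GRCm38.p6. Of the first cluster, Aqp5 was well counted, while Aqp6, an anion-permeable channel of kidney cells, had 2 and 0 counts in the knockouts and 4 and 0 counts in the controls. Both genes of the second cluster were near the limit of detection. Mip, the lens channel also called Aqp0, had 4 and 2 counts in the knockouts and 21 and 9 in the controls, a pooled knockout to control ratio of 0.229 (counting interval 0.0777 to 0.558). This interval leaves out variation between libraries, and Mip did not pass the filter on low counts and was not tested. Aqp12, known from pancreatic acinar cells, had 0 counts in each library, where 3 counts would be 0.0906 and 0.107 CPM in the knockouts and 0.0863 and 0.0854 CPM in the controls.

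Genes around water transport were described by 6 lists with 74 members, of which 67 were tested. In edgeR 0 passed over all genes, and 6 had an unadjusted p under 0.05, where 3.01% of all genes tested did. The lists were chosen with earlier results of these data known. For partners and trafficking of aquaporins the median log2 fold change was 0.027 over 16 genes, with Ezr, which links membrane proteins to actin, at 271.6 and 280.3 TPM in the knockouts and 290.5 and 280.0 TPM in the controls. Vamp2, a vesicle fusion protein, was at 122.9 and 81.1 TPM in the knockouts and 109.7 and 106.9 TPM in the controls. For glycerol handling the median was 0.039 over 12 genes, with Pnpla2, the triglyceride lipase, at 51.8 and 34.5 TPM in the knockouts and 45.3 and 44.1 TPM in the controls. Gpat4, an acyltransferase of glycerol phosphate, was at 44.8 and 57.6 TPM in the knockouts and 56.2 and 44.9 TPM in the controls. For osmotic stress and cell volume the median was 0.032 over 13 genes, with the taurine transporter gene Slc6a6 at 139.9 and 158.2 TPM in the knockouts and 146.6 and 126.3 TPM in the controls. Slc38a2, an amino acid transporter gene induced by hypertonicity, was at 84.1 and 96.3 TPM in the knockouts and 106.2 and 96.9 TPM in the controls. These medians lie close to the 0.0063 over all genes.

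Among 16 tested genes of luminal ion transport, which sets the gradients that water follows, the median log2 fold change was −0.16, with 4 above 0 and 12 below 0. Fxyd4, a small membrane protein that regulates ion transport, was at 477.3 and 276.5 TPM in the knockouts and 139.9 and 611.2 TPM in the controls. Its lowest library was control 1, as for Aqp5. Clca1, a secreted regulator of chloride channels, was at 64.7 and 26.0 TPM in the knockouts and 0.122 and 1.06 TPM in the controls, with adjusted p = 0.216 in edgeR and 0.00146 in DESeq2. For the 10 claudin and junction genes of paracellular routes the median was −0.065. Cldn3 was at 1316 and 750.3 TPM in the knockouts and 815.9 and 1475 TPM in the controls, and Cldn7 at 175.2 and 287.4 TPM in the knockouts and 195.7 and 200.9 TPM in the controls.

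Luminal epithelium markers summed to 1377 and 1459 TPM in the knockouts and 818.6 and 1608 TPM in the controls, with Krt19 and Msx1 the most abundant of 8. Pan-epithelial markers, led by Krt8 and Krt18, summed to 1794 and 1836 TPM in the knockouts and 1698 and 2012 TPM in the controls. Aqp5 was lowest in control 1, as were both of these sums, 5 of the 8 luminal and 2 of the 7 pan-epithelial markers. Their part in the Aqp5 values was not tested. Median log2 fold changes of the remaining lists were 0.089 for stroma (led by Col1a1 and Vim), −0.33 for mesothelium (Wt1 and Upk3b), 0.61 for skeletal muscle (Acta1 and Tnni2, with Myh4 and Myh1 at 0), −0.14 for oviduct epithelium (Tppp3 and Ovgp1) and 0.12 for early embryo (Krt8 and Eomes, with Cdx2 at 0). Over the 17 marker lists 0 of 103 entries tested passed over all genes in edgeR. An unadjusted p under 0.05 was seen for 14 entries, where 3.01% of all genes tested had such a p. Of these 14, 7 were in the gland list, and all lists were chosen with earlier results of these data known.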

How the data were processed

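The authors deposited raw whole-number counts for 57186 genes, with gene lengths, and a TPM table of 19991 genes with symbols. On checking, genes of the TPM table had total counts of at least 51 and all others of at most 50. The submitters' processing notes name Trimmomatic, STAR, featureCounts and GRCm39, in no stated order, and no version of them. Strand and multi-mapping settings: not given in the sources used here, so overlapping genes are uncertain. Genes below the cut were put on the scale of the deposited TPM by count over length.

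The test was edgeR 4.0.16 (R 4.3.3, quasi-likelihood, TMM, filterByExpr) on the deposited counts, with genotype as its single term, over 20950 genes, adjusted by Benjamini-Hochberg. DESeq2 1.42.0 and limma-voom 3.58.1 were alternatives, as were other factors, filters, log2(TPM + 1), a replicate block and leaving out each library. No label says that replicates are separate animals. A p-value here therefore reflects variation among these libraries alone, which may be technical. Counting intervals are exact (Clopper-Pearson, 95%) and, like the floor of 3 counts, cover counting error only.

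Members, gene lists and marker lists were chosen with earlier results of these data known. All members, and Mip, Aqp6 and Aqp12, are named, with the 2 most abundant genes of each list and, for Aqp1, Aqp5 and Aqp11, the 3 genes of nearest profile. Some genes under this rule are not reported here. Clca1 and marker genes near 0 were named after their values were seen. Of 74 listed genes 73 were matched by symbol, Akr1b3 not.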

Additional observations from a re-analysis of the deposited data

How the results depend on the processing

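In edgeR with all 4 libraries 0 members passed in each direction, and so it was under every alternative, the lowest adjusted p of a member being 0.274 for Aqp5 without control 2. Of 81 alternative fold changes of members 9 changed sign, all for Aqp3, Aqp7, Aqp9 and Aqp11. Aqp7 turned to 0.29 in limma-voom and to 0.14 with the replicate block. With 1 library left out, log2 fold changes ran from −1.07 to 0.62 for Aqp3, from −1.15 to 2.04 for Aqp7, from −0.94 to 0.84 for Aqp9 and from −1.82 to 0.18 for Aqp11. In these fits the lone library of a group is assumed to vary like the other group. The cause was not tested. The summed aquaporin TPM differed by 180.3 with all 4 libraries and by 94.5 to 266.1 with 1 left out, and the ratio was 1.84, or 1.77 in CPM. The Aqp11 share differed by −4.56 percentage points in TPM and by −12.1 in CPM, which is not per length.

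Over all genes, 1 was higher and 0 lower in edgeR. With no filter on low counts these were 35 and 19, in DESeq2 44 and 46, in limma-voom 0 higher, with log2(TPM + 1) 2 higher, and with the replicate block 22 and 10. With 1 library left out there were 10 to 39 higher and 4 to 22 lower. Same-numbered libraries deviated in opposite directions (correlation −0.44), which cannot show whether the labels' numbers pair them. Crossed pairing, chosen after seeing the data, gave 22 and 15. Clca1 passed in edgeR with no filter on low counts, with the replicate block and with each library left out. With 2 libraries a group the intervals of members span more than 2 log2 units.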

Other observations

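Aqp10-ps, annotated as a pseudogene of Aqp10, is a family relative outside the 9 members, and it was looked up after its values were seen. It had 25 and 17 counts in the knockouts, against 11 and 5 counts in the controls. Per length this was 2.78 and 1.93 TPM in the knockouts and 1.13 and 0.509 TPM in the controls, so the groups did not overlap. Both knockouts lay above both controls for 12.2% of all tested genes, so this order is no result about Aqp10-ps. Its level per length was above those of Aqp3, Aqp7 and Aqp9 in the mean over the 4 libraries, at 1.59 TPM. In control 2 it was below them, at 0.509 TPM against 0.999, 0.937 and 1.32 TPM. In mean CPM, not per length, Aqp10-ps was below Aqp9, at 0.680 against 0.877 in the knockouts and 0.229 against 1.10 in the controls. Its log2 fold change of 1.56 (SE 0.70, 95% interval −0.088 to 3.23) had adjusted p = 0.99998 in edgeR. The pooled ratio of knockout to control was 2.999 with an exact 95% counting interval of 1.65 to 5.71, which leaves out variation between libraries. How multi-mapping reads were handled is not given in the sources used here, so reads from related sequences may be among these counts.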
